A study of Mus musculus with 19 samples.

Results

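Hepatic steroid hormone metabolism was followed through 7 enzyme genes (Hsd3b2, Hsd3b3, Hsd3b5, Hsd11b1, Hsd17b2, Srd5a1 and Akr1c6), chosen by name from the 49315 genes of the liver count tables. Each of the 7 was found once, and all 7 passed the filter on low counts that left 15016 genes for testing. Liver RNA came from 19 female mice of the strain C57BL/6N-Atm1Brd Gramd1ctm1a(KOMP)Wtsi/JMmucd, 1 library per mouse, in 4 groups: 5 Gramd1c-/- mice and 5 Gramd1c+/+ littermates on high cholesterol (0.2% wt/wt), and 4 Gramd1c-/- and 5 Gramd1c+/+ mice on low cholesterol (0.02% wt/wt). All mice were 8 weeks old when the synthetic diets replaced chow, and ate them for 4 weeks. The Gramd1c-/- mice carry the knockout-first tm1a(KOMP)Wtsi allele in every tissue, so Gramd1c, which encodes the cholesterol transfer protein Aster-C, is targeted in the adrenal gland and elsewhere as well as in the liver. Only the liver was measured here. The study asked whether Aster-C shapes cholesterol balance and its metabolites, steroid hormones among them, at each level of dietary cholesterol. Most mice of the study were fasted before necropsy and tissues were perfused with saline.

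The liver does not make steroid hormones from cholesterol. It activates, inactivates and clears hormones that the adrenal gland and the gonads release, by oxidizing or reducing single positions of the steroid and by passing the products on for conjugation. Several of these enzymes differ between male and female rodent livers, because growth hormone reaches the liver in sharp pulses in males and more evenly in females, and in mice Hsd3b5 is among the genes best known for being high in male liver.

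Total counts ran between 27149972 and 34669648 per mouse. A label field names gonadal adipose tissue while another names liver, and the 6 hepatocyte markers summed to between 76576 and 126769 TPM (transcript abundance per length, scaled to a fixed total per library) in all mice, with none at 0. Gramd1c was lower in Gramd1c-/- mice on both diets (on low cholesterol 1.65 ± 0.365 TPM in 4 Gramd1c-/- and 12.2 ± 2.22 TPM in 5 Gramd1c+/+ mice, on high cholesterol 1.84 ± 1.02 TPM in 5 Gramd1c-/- and 10.6 ± 0.996 TPM in 5 Gramd1c+/+ mice, mean ± SD) and its groups did not overlap. Transcript remained in every Gramd1c-/- liver, at 3.61 TPM in mouse 5 on high cholesterol and at 1.07 to 2.04 TPM in the other 8. The library of mouse 2 of the Gramd1c+/+ low cholesterol group also held adrenal and fat transcripts: 9 adrenal cortex markers summed to 632 TPM there and to between 34.3 and 53.8 TPM in the other 18 libraries, and 6 adipocyte markers to 137 TPM against 2.32 to 8.54 TPM. Of the adrenal markers Mrap alone had 33.2 to 51.4 TPM over the 19 libraries, and it made up most of the sum in the other 18. The library of mouse 5 of the Gramd1c-/- high cholesterol group had the most extreme score of all 19 on the leading principal component of the tested genes (24.4% of their variance). In the Gramd1c-/- high cholesterol group, 5 cholangiocyte markers summed to 216 TPM in mouse 3 (43.1 to 85.5 TPM in the other 18 mice) and 6 Kupffer cell markers to 755 TPM in mouse 4 (143 to 388 TPM). These are whole-tissue samples, in which fewer cells of a type and less RNA per cell cannot be told apart.

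Hsd3b2, Hsd3b3 and Hsd3b5 belong to the 3-beta-hydroxysteroid dehydrogenase family, which lies as a cluster on chromosome 3. In mice Hsd3b2 and Hsd3b3 encode dehydrogenase/isomerases that turn delta-5 steroids into delta-4 steroids, whereas Hsd3b5 encodes a form that works as a ketosteroid reductase and inactivates androgens. On GRCm38, as in the deposited tables, Hsd3b2 (ENSMUSG00000063730) spans chr3:98709255-98724543, Hsd3b3 (ENSMUSG00000062410) chr3:98741523-98763127 and Hsd3b5 (ENSMUSG00000038092) chr3:98618634-98630252, all on the minus strand. The coding sequences of the 3 genes are 1122 bases each in GENCODE M21. Hsd3b2 and Hsd3b3 were identical at 95.1% of positions, while Hsd3b5 shared 80.3% with Hsd3b2 and 79.6% with Hsd3b3. The first 90 coding bases are shown because they let a reader see how close the genes are whose levels are compared here. Capitals mark the 16 positions at which the 3 differ.
Hsd3b2: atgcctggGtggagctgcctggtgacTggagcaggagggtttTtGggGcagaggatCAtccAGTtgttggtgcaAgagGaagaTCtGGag
Hsd3b3: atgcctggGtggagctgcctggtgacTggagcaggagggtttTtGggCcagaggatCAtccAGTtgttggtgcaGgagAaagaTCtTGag
Hsd3b5: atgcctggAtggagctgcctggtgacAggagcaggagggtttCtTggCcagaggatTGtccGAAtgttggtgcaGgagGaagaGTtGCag
Of the 150-base words in the annotated transcripts, 2.16% of those of Hsd3b2, 1.91% of those of Hsd3b3 and 1.21% of those of Hsd3b5 also occurred in another gene. How the authors' counting treated reads that fit more than 1 gene of the cluster is not given in the sources used here, so the levels of the 3 genes carry that uncertainty. Zfp697 on the opposite strand shares 99 exon bases with Hsd3b2 and 281 with Hsd3b3. Without a stated strand setting its reads cannot be told apart there, and its median was 38 counts.

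The 250 bases before a RefSeq start (GRCm38.p6, minus strand) of Hsd3b3 and Hsd3b5 are shown because these neighbours share an upstream run of bases while their levels varied to very different degrees among mice. Capitals mark the 24 bases that both hold, from -105 to -82 of Hsd3b3 and from -153 to -130 of Hsd3b5. The windows are chr3:98763129-98763378 for Hsd3b3 and chr3:98645535-98645784 for Hsd3b5.
Hsd3b3 upstream: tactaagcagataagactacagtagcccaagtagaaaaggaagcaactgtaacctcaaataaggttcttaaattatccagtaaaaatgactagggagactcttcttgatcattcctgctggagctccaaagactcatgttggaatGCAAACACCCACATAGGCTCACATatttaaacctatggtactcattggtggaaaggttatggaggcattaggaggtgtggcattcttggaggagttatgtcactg
Hsd3b5 upstream: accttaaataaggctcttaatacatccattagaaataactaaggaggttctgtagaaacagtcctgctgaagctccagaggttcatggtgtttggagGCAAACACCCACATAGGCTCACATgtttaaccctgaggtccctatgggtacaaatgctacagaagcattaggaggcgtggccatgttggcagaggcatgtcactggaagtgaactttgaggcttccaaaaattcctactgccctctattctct
RefSeq starts Hsd3b5 upstream of the start in the deposited tables, at 98645534, so this window belongs to the RefSeq start only. The RefSeq gene of Hsd3b3 reaches to 98764540, beyond the start used here. In a global alignment of the whole windows identical bases made up 50.2% of the columns for the pair, against 44.9% for Hsd3b2 with either. Gap columns are counted in these shares, and the shared run lies at different distances from the 2 starts. Identity over paired bases alone is therefore higher than these shares and is not given here. The motifs searched on both strands were TTCNNNGAA, bound by STAT proteins, TTGCNNAA, bound by C/EBP proteins, and CAAAGTCCA, bound by HNF4A. They occur in 7.02%, 9.56% and 0.38% of 32851 RefSeq promoter windows of this length. None of the windows of Hsd3b2, Hsd3b3, Hsd3b5, Hsd11b1, Srd5a1 and Akr1c6 held one of them, and Hsd17b2 had no entry. The Hsd11b1 window (chr1:193242361-193242610) lies inside the gene span of the deposited tables, so it belongs to an internal RefSeq start only. The Akr1c6 window (chr13:4434093-4434342) runs past the start in the deposited tables, at 4434306.

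The other members act on other positions. Hsd11b1 (ENSMUSG00000016194, chr1:193221634-193264075, minus strand) reduces inert 11-keto glucocorticoids to active corticosterone. Hsd17b2 (ENSMUSG00000031844, chr8:117701904-117759027, plus strand) oxidizes estradiol and testosterone to weaker hormones. Srd5a1 (ENSMUSG00000021594, chr13:69573449-69611442, minus strand) reduces the A ring of testosterone and other delta-4 steroids. Akr1c6 (ENSMUSG00000021210, chr13:4434306-4457530, plus strand) is the mouse aldo-keto reductase known as 17-beta-hydroxysteroid dehydrogenase type 5. Gm17108 shares 476 of the 2881 exon bases of Srd5a1 on the same strand and had a median of 9 counts.

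The levels of the 7 genes, in TPM and therefore per length of transcript, differed widely. Akr1c6 was the most abundant, with a lowest, median and highest value over the 19 mice of 927, 1179 and 1622 TPM, and it exceeded every other member in all 19 mice. Hsd11b1 followed with 206, 342 and 444 TPM, and Hsd17b2 with 178, 217 and 329 TPM. Hsd11b1 was above Hsd17b2 in 18 of 19 mice, although their ranges overlapped. Hsd3b3 (32.6, 49.7 and 73.6 TPM) and Srd5a1 (27.4, 44.0 and 88.2 TPM) formed a lower tier, in which Hsd3b3 was the higher in 14 of 19 mice, so that their order was not clear of the spread. Hsd3b5 ran between 2.18 and 173 TPM with a median of 9.90 TPM, and Hsd3b2 between 5.43 and 35.7 TPM with a median of 13.8 TPM. Hsd3b5 was above Hsd3b2 in 10 of 19 mice, which gives these neighbours no order. Every member except Hsd3b5 kept its highest mouse within 6.57 times its lowest, while Hsd3b5 differed 79.4-fold between its extremes.

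**Figure D1:**
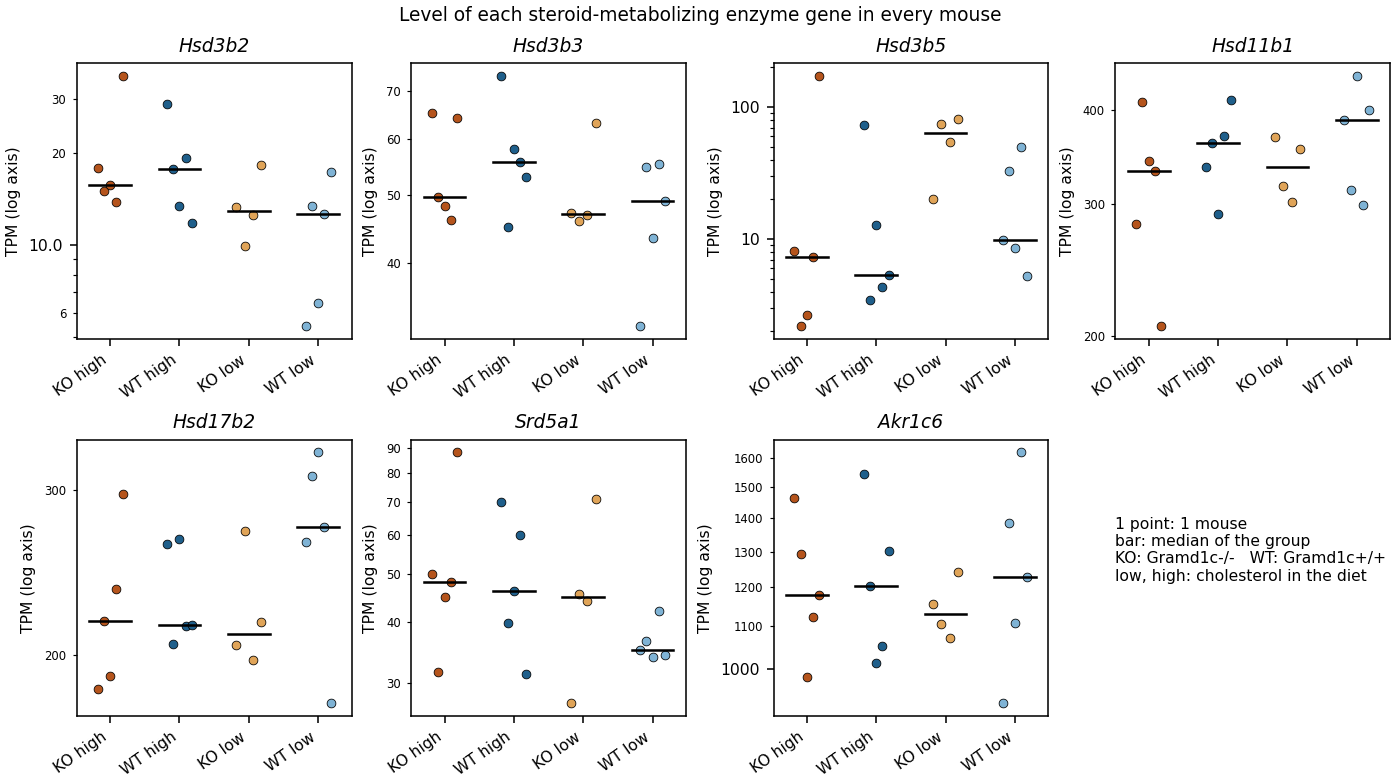
TPM of each of the 7 genes (vertical log axis, a separate scale per panel) in every mouse (points), by group, with bars at the group medians. Hsd3b5 spread from 2.18 to 173 TPM, and the groups overlapped for each of the 7 genes in each comparison. The share of all genes whose groups overlap is not given here, so the overlap is no trait of these 7.

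Spread among mice of one group set Hsd3b5 apart. Its SD within groups was 1.81 on the log2 CPM (counts scaled to library size) scale, at the 99.9th percentile of the 15016 genes tested, whose median SD was 0.306. Hsd3b2 (0.567) and Srd5a1 (0.458) lay at the 84.0 and 74.5 percentiles. Hsd17b2 (0.315), Hsd3b3 (0.292), Akr1c6 (0.274) and Hsd11b1 (0.261) lay close to the median. The counts behind Hsd3b5 ran from 48 to 3712 in a mouse, and those of Hsd3b2 from 268 to 1824.

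None of the 7 genes passed an adjusted p below 0.05 in any comparison with edgeR's quasi-likelihood test over 15016 genes. For Gramd1c-/- against Gramd1c+/+ mice the test called 0.00666% of all genes on low cholesterol and 0.00666% on high cholesterol, in each case 1 gene, Gramd1c itself. For high against low cholesterol it called 0.326% in Gramd1c-/- mice and 0.44% in Gramd1c+/+ mice, and for the interaction of genotype and diet 0%. So few calls over the genome leave little to be read from 0 of 7. At an unadjusted p below 0.05, 1 member (Hsd3b2, for diet in Gramd1c+/+ mice) passed in 1 of the 5 comparisons, while 400, 364, 1712, 1191 and 250 of all genes did in the order of the comparisons just given. DESeq2 and limma also called 0 members in each comparison.

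The genotype comparison on low cholesterol asked whether loss of Aster-C changed these genes when dietary cholesterol was scarce. Hsd3b5, the reductase of male liver, had 19.97, 73.9, 54.2 and 81.7 TPM in the 4 Gramd1c-/- mice, against 9.90, 32.8, 8.62, 50.2 and 5.26 TPM in the 5 Gramd1c+/+ mice. All 4 Gramd1c-/- mice lay above the Gramd1c+/+ median and 3 above the highest Gramd1c+/+ mouse, but the lowest Gramd1c-/- mouse lay among the Gramd1c+/+ values. The medians were 64.1 TPM in Gramd1c-/- and 9.90 TPM in Gramd1c+/+ mice, and the fitted log2 fold change was 1.45 ± 1.12 (SE; edgeR adjusted p = 0.999). It was 2.07 without mouse 4 of the Gramd1c+/+ group, and 2.40 with a term for 2 runs of library numbers. The second run holds mice 4 and 5 of this Gramd1c+/+ group and no Gramd1c-/- mouse on low cholesterol. On high cholesterol it holds mouse 5 of the Gramd1c-/- and mice 1, 2 and 3 of the Gramd1c+/+ group. Run and group are thus partly confounded, and values with this term are no neutral check. The 95% interval of the fit ran from a 0.539-fold to a 13.8-fold level in Gramd1c-/- mice, so neither no change nor a several-fold rise lay outside it.

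Srd5a1, the reductase of the A ring, had 27.4, 45.6, 44.0 and 70.8 TPM in Gramd1c-/- mice and 35.1, 36.6, 34.0, 42.1 and 34.3 TPM in Gramd1c+/+ mice on low cholesterol. Of the Gramd1c-/- mice 3 stood above and 1 below all Gramd1c+/+ mice, which were tightly grouped. The log2 fold change was 0.35 ± 0.28 (SE; edgeR adjusted p = 0.999). Hsd3b2 averaged 13.5 ± 3.49 TPM in 4 Gramd1c-/- mice and 11.1 ± 5.02 TPM in 5 Gramd1c+/+ mice (SD), a log2 fold change of 0.29. Hsd3b3 averaged 50.7 ± 8.22 TPM in Gramd1c-/- and 47.0 ± 9.38 TPM in Gramd1c+/+ mice. These differences were smaller than the spread among mice.

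The 3 abundant members had lower means in Gramd1c-/- than in Gramd1c+/+ mice on low cholesterol, again within the spread. Hsd11b1 averaged 335 ± 31.3 TPM in Gramd1c-/- and 368 ± 61.2 TPM in Gramd1c+/+ mice (SD, n = 4 and 5), Hsd17b2 223 ± 33.2 TPM in Gramd1c-/- and 271 ± 58.3 TPM in Gramd1c+/+ mice, and Akr1c6 1144 ± 73.4 TPM in Gramd1c-/- and 1254 ± 265 TPM in Gramd1c+/+ mice. The log2 fold changes were -0.15 for Hsd11b1, -0.28 for Hsd17b2 and -0.13 for Akr1c6. Their 95% intervals reached down to 0.7-fold, 0.614-fold and 0.704-fold and up to 1.16-fold, 1.1-fold and 1.19-fold. For these 3 genes a 2-fold change in either direction therefore lay outside the interval.

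On high cholesterol the genotype comparison of Hsd3b5 turned on single mice. The 5 Gramd1c-/- mice had 8.12, 2.18, 2.68, 7.37 and 173 TPM, against 73.7, 3.45, 12.7, 4.33 and 5.32 TPM in the 5 Gramd1c+/+ mice. In each genotype 1 mouse was far above its group, and the other 4 lay between 2.18 and 8.12 TPM in Gramd1c-/- and between 3.45 and 12.7 TPM in Gramd1c+/+ mice. The log2 fold change over all mice was 0.97 ± 1.07 (SE; edgeR adjusted p = 1). It was -2.07 without mouse 5 of the Gramd1c-/- group and 2.55 without mouse 1 of the Gramd1c+/+ group, so the data give no direction.

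The same mice were high for other members. Srd5a1 had 49.9, 31.6, 44.9, 48.2 and 88.2 TPM in Gramd1c-/- mice on high cholesterol and 70.1, 39.8, 46.1, 59.9 and 31.4 TPM in Gramd1c+/+ mice, with the highest values in mouse 5 and mouse 1. Hsd3b2 had 17.8, 14.98, 15.6, 13.8 and 35.7 TPM in Gramd1c-/- mice and 28.7, 17.7, 13.4, 19.3 and 11.8 TPM in Gramd1c+/+ mice, with the highest values in the same pair. The log2 fold changes for genotype were 0.04 for Srd5a1 and 0.07 for Hsd3b2, and without mouse 5 of the Gramd1c-/- group they were -0.28 and -0.31. Hsd11b1 was at 206 TPM in mouse 5, the lowest of all 19 mice. The other Gramd1c-/- mice on high cholesterol had 282, 410, 342 and 332 TPM, against 336, 361, 291, 369 and 412 TPM in Gramd1c+/+ mice. Its log2 fold change was -0.24 ± 0.16 (SE; edgeR adjusted p = 1), and -0.14 without mouse 5.

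Hsd3b3, Hsd17b2 and Akr1c6 had similar means in both genotypes on high cholesterol. Hsd3b3 averaged 54.6 ± 9.27 TPM in Gramd1c-/- and 57.0 ± 10.5 TPM in Gramd1c+/+ mice, Hsd17b2 225 ± 45.5 TPM in Gramd1c-/- and 233 ± 28.8 TPM in Gramd1c+/+ mice, and Akr1c6 1208 ± 181 TPM in Gramd1c-/- and 1224 ± 214 TPM in Gramd1c+/+ mice (SD, n = 5 each). The log2 fold changes were -0.12, -0.12 and -0.07. The 95% intervals ran from 0.715 to 1.19-fold for Hsd3b3, from 0.699 to 1.2-fold for Hsd17b2 and from 0.743 to 1.22-fold for Akr1c6.

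**Figure D2:**
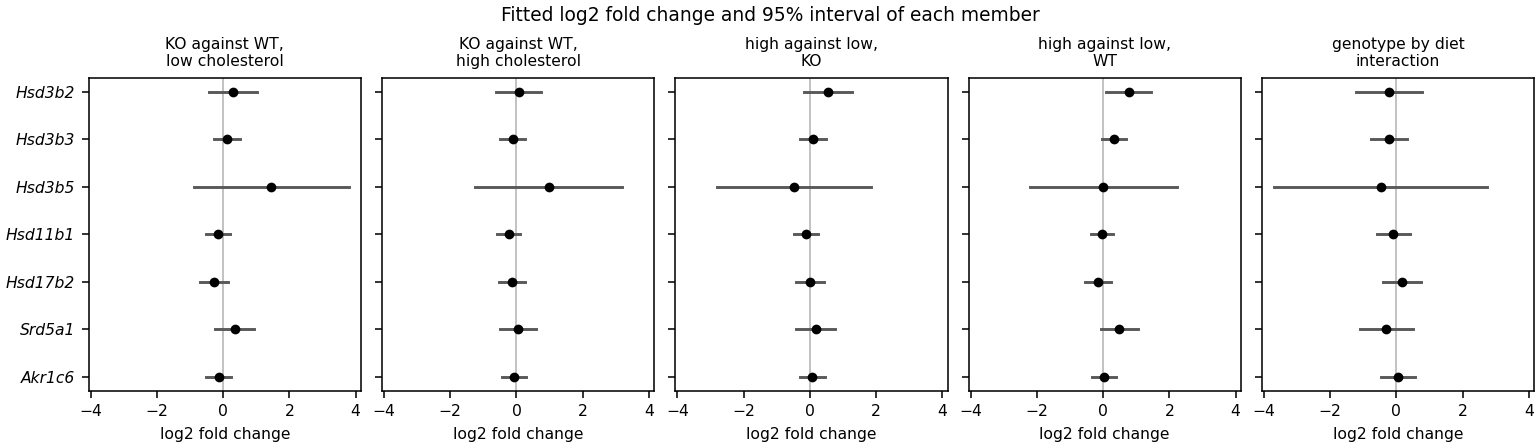
Log2 fold change (points) and 95% interval (lines) of each of the 7 genes from edgeR's fit of all 19 mice, 1 panel per comparison. The Hsd3b5 intervals are the widest, reaching from -0.89 to 3.79 for genotype on low cholesterol, and among the 35 intervals the one of Hsd3b2 for diet in Gramd1c+/+ mice (0.09 to 1.46) alone leaves out 0.

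The diet comparison asked what a higher cholesterol intake did within each genotype. In Gramd1c+/+ mice Hsd3b2, a dehydrogenase/isomerase, had 28.7, 17.7, 13.4, 19.3 and 11.8 TPM on high cholesterol, against 5.43, 13.4, 6.47, 12.6 and 17.4 TPM on low cholesterol. Of the 5 mice on high cholesterol 3 lay above all mice on low cholesterol, and the groups overlapped. The log2 fold change was 0.78 ± 0.33 (SE), with an unadjusted p of 0.0282 and an adjusted p of 0.576 in edgeR's test. In Gramd1c-/- mice the log2 fold change of Hsd3b2 was 0.55 ± 0.35 (SE; edgeR adjusted p = 0.522), and 0.17 without mouse 5 of the high cholesterol group. The difference between the genotypes in this diet effect was -0.23 on the log2 scale (edgeR interaction, adjusted p = 1).

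Srd5a1 and Hsd3b3 also had higher means on high cholesterol in Gramd1c+/+ mice. Srd5a1 averaged 49.5 ± 15.5 TPM on high and 36.4 ± 3.34 TPM on low cholesterol, and Hsd3b3 57.0 ± 10.5 TPM on high and 47.0 ± 9.38 TPM on low cholesterol (SD, n = 5 each). The log2 fold changes were 0.49 ± 0.27 for Srd5a1 and 0.34 ± 0.18 for Hsd3b3 (SE; edgeR adjusted p = 0.669 and 0.663). In Gramd1c-/- mice they were 0.18 for Srd5a1 and 0.11 for Hsd3b3, and the value of Srd5a1 was -0.14 without mouse 5 of the high cholesterol group. In no case did the groups separate.

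For Hsd3b5 the diets divided the Gramd1c-/- mice apart from 1 animal. On high cholesterol 4 of 5 Gramd1c-/- mice, with 2.18 to 8.12 TPM, lay below the lowest Gramd1c-/- mouse on low cholesterol (19.97 TPM), whereas mouse 5, with 173 TPM, lay above the highest (81.7 TPM). The log2 fold change for high against low cholesterol was -0.47 ± 1.11 (SE; edgeR adjusted p = 0.864) and -3.51 without that mouse (edgeR adjusted p = 0.269). In Gramd1c+/+ mice the medians were 5.32 TPM on high and 9.90 TPM on low cholesterol, and the log2 fold change was 0.00 ± 1.06 (SE) with all mice, or -1.58 without mouse 1 of the high cholesterol group. The interaction was -0.47 on the log2 scale, with a 95% interval from -3.69 to 2.74.

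The glucocorticoid and estrogen enzymes had narrow intervals around no change with diet. For high against low cholesterol the log2 fold changes of Hsd11b1 were -0.12 in Gramd1c-/- and -0.03 in Gramd1c+/+ mice, those of Hsd17b2 0.01 and -0.16, and those of Akr1c6 0.08 and 0.02. The 95% intervals of these 3 genes lay between 0.683-fold and 1.37-fold in both genotypes. The members as a set had a median log2 fold change of 0.08 in Gramd1c-/- and 0.02 in Gramd1c+/+ mice, beside 0.02 and 0.01 over all genes tested. For genotype the medians were 0.11 on low and -0.07 on high cholesterol, beside 0.00 and 0.01 over all genes.

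Mice of the same group differed in these genes, and the other genes that varied with them were therefore listed. Over the 19 mice the 5 tested genes most like Hsd3b5 in log2 CPM were Slco1a1 (Pearson r = 0.947), Cyp7b1 (0.889), Nudt7 (0.88), C8a (0.872) and Mup7 (0.866). Slco1a1 encodes an organic anion uptake carrier, Cyp7b1 an oxysterol and steroid hydroxylase, Nudt7 a peroxisomal coenzyme A hydrolase, C8a a complement component and Mup7 a major urinary protein. For Slco1a1 the Spearman rho was 0.963, the r of the residuals from the group means 0.933 and the r without the 2 mice farthest from the Hsd3b5 median 0.952. The relation was 0.96 in the 13 mice of the first of 2 runs of library numbers and 0.985 in the 6 mice of the second, 0.968 in the 9 mice on low cholesterol and 0.93 in the 10 on high cholesterol. It was 0.957 without mouse 5 of the Gramd1c-/- high cholesterol group and mouse 2 of the Gramd1c+/+ low cholesterol group. These numbers come with the deposited tables, and the labels do not say what they mark. The points of every such correlation share their library and its scaling, and the genes were picked for their high r.

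In TPM, Slco1a1 had 97.7, 187, 151 and 182 in Gramd1c-/- mice on low cholesterol, against 70.5, 156, 51.0, 139 and 59.2 in Gramd1c+/+ mice. On high cholesterol it had 81.1, 18.3, 39.4, 67.7 and 165 in Gramd1c-/- mice, against 153, 41.4, 65.2, 35.6 and 46.5 in Gramd1c+/+ mice. The mouse with the most Hsd3b5 also had the most Slco1a1 in both high cholesterol groups, but in both low cholesterol groups mouse 4 had the most Hsd3b5 and mouse 2 the most Slco1a1.

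**Figure D3:**
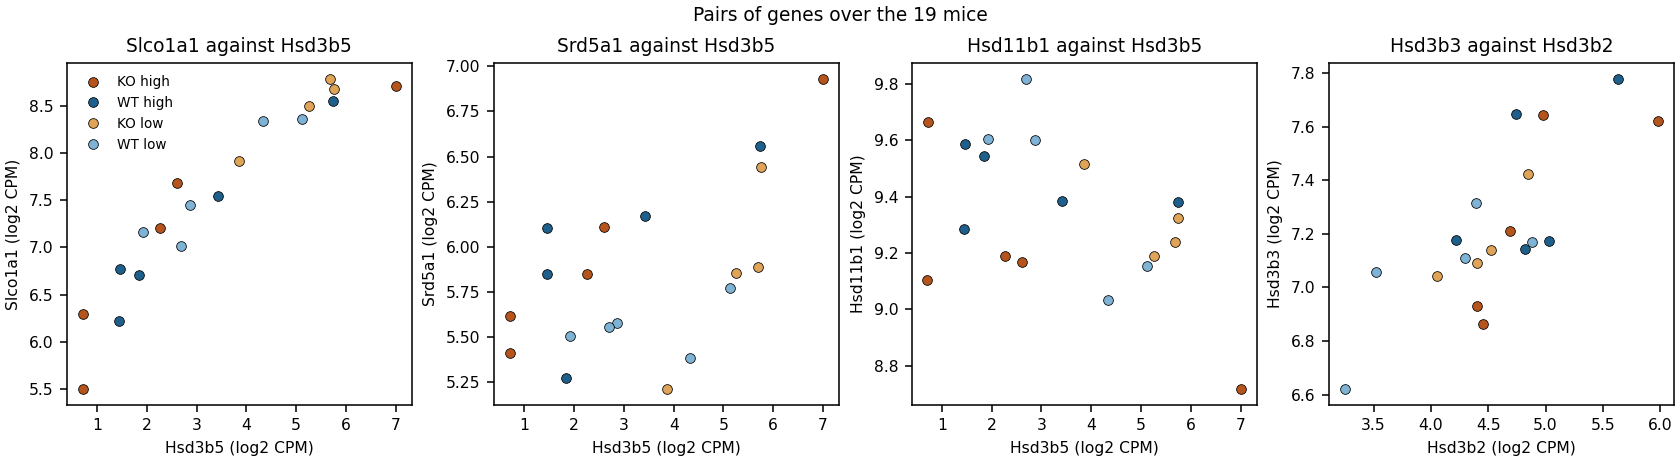
Log2 CPM of 4 pairs of genes, each point 1 of the 19 mice, coloured by group. Slco1a1 followed Hsd3b5 (r = 0.947), Srd5a1 followed it more loosely (0.575), Hsd11b1 ran against it (-0.514), and Hsd3b3 followed Hsd3b2 (0.777).

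Each member was also set beside a list of 15 male-biased and a list of 19 female-biased liver genes, the first of which holds Slco1a1, Cyp7b1 and Mup7. All 19 mice are female. Hsd3b5 correlated positively with 15 of 15 male-biased genes (median r = 0.774, range 0.248 to 0.947) and negatively with 18 of 19 female-biased genes (median -0.562), while its median r over all tested genes was -0.006. The exception was Cyp2c40, at 0.565. Since Slco1a1, Cyp7b1 and Mup7 were named above for their high r, the male-biased median was also taken over the other 12 genes, where it was 0.75 (range 0.248 to 0.844). Srd5a1 ran the same way, with 15 of 15 male-biased genes positive (median 0.529) and 18 of 19 female-biased genes negative (median -0.647). Hsd3b2 had 15 of 15 male-biased genes positive and 19 of 19 female-biased genes negative, with weaker medians (0.34 and -0.412), and Hsd3b3 had 15 of 15 and 16 of 19 (0.401 and -0.304). Hsd17b2 had 14 of 15 positive and 14 of 19 negative (0.358 and -0.199). Hsd11b1 ran opposite, with 15 of 15 male-biased genes negative (median -0.439) and 18 of 19 female-biased genes positive (median 0.4). Akr1c6 had 14 of 15 male-biased genes positive, and medians of 0.294 and -0.026.

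The summed level of the male-biased list differed widely between mice: on low cholesterol it was 2984 to 6934 TPM in Gramd1c-/- and 999 to 4176 TPM in Gramd1c+/+ mice, and on high cholesterol it was 879 to 8234 TPM in Gramd1c-/- and 968 to 5794 TPM in Gramd1c+/+ mice. Much of the sum was Serpina1e, a serine protease inhibitor, which alone ran from 1010 to 5021 TPM in Gramd1c-/- and from 169 to 3102 TPM in Gramd1c+/+ mice on low cholesterol, and from 73.6 to 4722 TPM in Gramd1c-/- and from 66.9 to 2985 TPM in Gramd1c+/+ mice on high cholesterol. The highest sum, 8234 TPM, was in mouse 5 of the Gramd1c-/- high cholesterol group, which also had the lowest sum of the female-biased list (1750 TPM). Without that mouse the medians for Hsd3b5 were 0.749 and -0.424, those for Srd5a1 0.45 and -0.509, and those for Hsd11b1 -0.173 and 0.131. The medians of Hsd11b1 moved most without that mouse. For Hsd3b2 the medians were 0.216 and -0.323 without that mouse, with 12 of 15 male-biased and 5 of 19 female-biased genes positive. For Hsd17b2 they were 0.251 and -0.032, with 13 of 15 male-biased and 9 of 19 female-biased genes positive, so its female-biased genes then had no common direction. No gene of either list was called in any comparison with edgeR. For genotype on low cholesterol 6 male-biased and 7 female-biased genes had an unadjusted p below 0.05 in edgeR's test, beside 2.66% of all genes. The lists hold Mup7, Mup20, Susd4, Cyp3a41a, Cyp3a44, Cyp3a16 and Sult3a2, which the study reported as altered by genotype on low cholesterol. It did so from these same data, by its own tests on TPM at a threshold of 0.05. These counts are therefore not independent of that report. The part of sex-biased expression in the Hsd3b5 values was not tested.

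**Figure D4:**
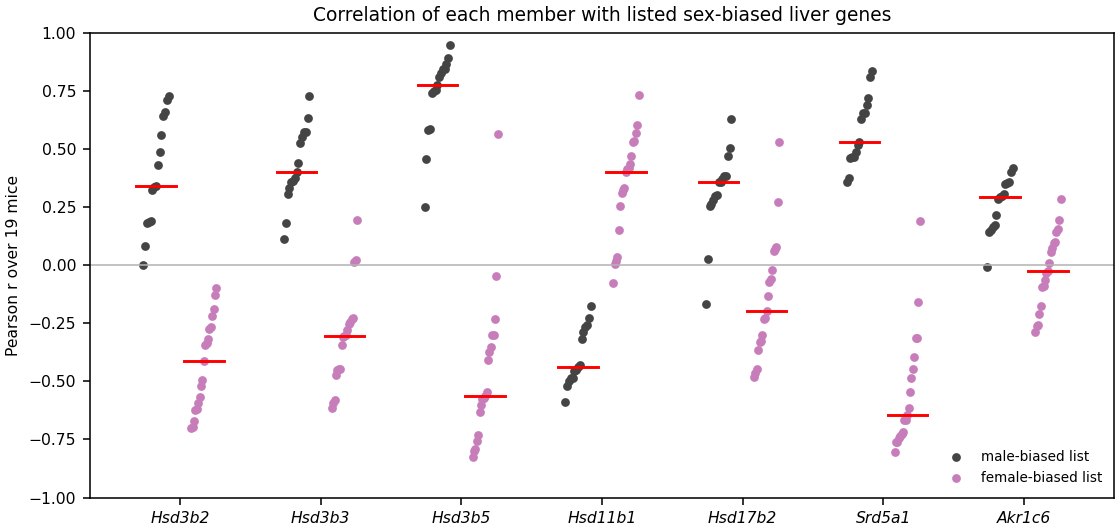
Pearson r over 19 mice between each of the 7 genes and each gene of a male-biased (dark) and a female-biased (pink) liver list, with red bars at the medians. Hsd3b5 has the highest male-biased median (0.774), and Hsd11b1 is the only member with a negative male-biased and a positive female-biased median.

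Among the members themselves Hsd3b2 and Hsd3b3 had the highest Pearson r of the 21 pairs, 0.777 over 19 mice (rho = 0.693, residual r = 0.745, 0.656 without the 2 farthest mice), and 0.738 in the 13 and 0.553 in the 6 mice of the 2 runs of library numbers. This pair also has the most similar coding sequences of the 3 family members, and the part of shared reads in its correlation was not tested. Hsd3b3 and Akr1c6 correlated at 0.709 and were above that pair by the other measures (rho = 0.772, residual r = 0.782, 0.731 without the 2 farthest mice), with 0.132 in the 6 mice of the second run. Hsd3b5 and Srd5a1 correlated at 0.575 (rho = 0.474) and, as residuals from the group means, at 0.802, with 0.328 in the 13 and 0.805 in the 6 mice. Their r was 0.327 without the 2 farthest mice and 0.43 without mouse 5 of the Gramd1c-/- high cholesterol group. Hsd11b1 correlated negatively with Hsd3b5 (-0.514) and with Srd5a1 (-0.533), and these values were -0.348 and -0.304 without mouse 5 of the Gramd1c-/- high cholesterol group. Hsd3b2 and Hsd3b5 of the same cluster correlated at 0.281 (rho = 0.058), at 0.592 as residuals from the group means, and at 0.027 without the 2 farthest mice.

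The genes most like the other members, again the 5 with the highest Pearson r, had varied functions. Srd5a1 was nearest to Mup20 (0.834) and Cyp4a12b (0.809), a major urinary protein and a fatty acid hydroxylase of the male-biased list, followed by Gm43597 (0.798), Alas2 (0.778) and Slc22a28 (0.772). Without the 2 mice farthest from the Srd5a1 median the r with Mup20 was 0.642. Hsd11b1 was nearest to Pecr (0.87), a peroxisomal enoyl-CoA reductase, then to Ces1g (0.863), Gstt3 (0.862), Ak3 (0.855) and Slc27a5 (0.854). Hsd3b3 was nearest to Phyh (0.86), the peroxisomal phytanoyl-CoA hydroxylase, then to 4933405D12Rik (0.833), Sult2a8 (0.809), Gm20319 (0.807) and Mgst1 (0.804).

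Hsd3b2 was nearest to Med4 (0.877), a Mediator subunit, Lmntd2 (0.866), Gm28438 (0.862), Taf1d (0.857) and Cebpe (0.857). The genes nearest to Hsd17b2 included Ssr2 (0.794), Edem2 (0.787), Dbn1 (0.785) and Erp29 (0.773), of which Ssr2, Edem2 and Erp29 serve protein folding and export in the endoplasmic reticulum. Akr1c6 was nearest to Gabarapl2 (0.894), an autophagy protein, Rpl15 (0.892), Mettl23 (0.881), Apool (0.874) and Polr1d (0.874).

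Around the members, 40 further genes of steroid metabolism, transport and reception were listed, of which 38 were in the tables and 28 were tested. Of these 1 was called, in 1 of the 5 comparisons, namely Hsd3b1, the family member of adrenal gland and gonads, which was lower on high than on low cholesterol in Gramd1c+/+ mice (log2 fold change -8.71, edgeR adjusted p = 0.0413). Its reads lay mostly in 1 library. Hsd3b1 had 6, 0, 2, 0 and 2 counts in Gramd1c+/+ mice on high cholesterol, against 12, 4981, 20, 13 and 8 counts on low cholesterol. The 4981 counts are those of mouse 2, the library with adrenal transcripts, where Star had 4677, Cyp21a1 5525 and Cyp11b1 2869 counts. Without that mouse the log2 fold change was -2.67 (edgeR adjusted p = 0.416), and for genotype on low cholesterol it was 0.22 without that mouse in place of -5.81. Among the members, mouse 2 had 13.4 TPM of Hsd3b2, 54.7 TPM of Hsd3b3 and 32.8 TPM of Hsd3b5, each inside the range of the other Gramd1c+/+ mice on low cholesterol.

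No gene of the list was called for genotype. On low cholesterol 13 of the 28 genes had a positive and 15 a negative log2 fold change, with a median of -0.02 beside 0.00 for all genes, and on high cholesterol 7 were positive and 21 negative, with a median of -0.08 beside 0.01. After Hsd3b1, the genes with the smallest p on low cholesterol included Cyp7b1 (log2 fold change 0.77 ± 0.30, SE), Cyp2d9 (1.12 ± 0.62), Hsd17b10 (-0.29) and Akr1d1 (-0.36), each with an edgeR adjusted p of 0.999. On high cholesterol they were Por (-0.34), Serpina6 (-0.27), Nr3c2 (-0.18), Akr1c19 (-0.28), Akr1d1 (-0.20) and Esr1 (-0.21), each with an edgeR adjusted p of 1. Cyp7b1 had the smallest p of the list for the interaction (-0.88 ± 0.42, SE, edgeR adjusted p = 1).

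With diet, Hsd17b12 stood closest to the threshold after Hsd3b1. Hsd17b12, which acts mainly in fatty acid elongation and can also reduce estrone, averaged 131 ± 17.6 TPM on high and 187 ± 22.2 TPM on low cholesterol in Gramd1c-/- mice (SD, n = 5 and 4), and 130 ± 19.4 TPM on high and 181 ± 24.4 TPM on low cholesterol in Gramd1c+/+ mice (n = 5 each). Its log2 fold changes were -0.53 ± 0.12 in Gramd1c-/- and -0.45 ± 0.12 in Gramd1c+/+ mice (SE; edgeR adjusted p = 0.0942 and 0.156). Cyp17a1, the steroid hydroxylase and lyase that mouse liver also expresses, averaged 34.3 ± 22.5 TPM on high and 114 ± 55.9 TPM on low cholesterol in Gramd1c+/+ mice (SD, n = 5 each), with a log2 fold change of -1.65 ± 0.53 (SE; edgeR adjusted p = 0.357). In Gramd1c-/- mice its log2 fold change was -0.85 ± 0.54 (SE; edgeR adjusted p = 0.522). Cyp7b1 had a log2 fold change of -0.80 ± 0.30 in Gramd1c-/- mice and 0.08 ± 0.29 in Gramd1c+/+ mice (SE; edgeR adjusted p = 0.36 and 0.952).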

How the data were processed

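Liver RNA of 19 mice was sequenced after poly(A) selection, and the authors deposited 1 table per mouse with whole-number counts per Ensembl gene, not normalized, with gene positions and lengths. STAR 2.5.2b and GRCm38 appear in the submitters' processing notes. How reads were counted, whether by strand and against which annotation, is not given in the sources used here, and reads shared by similar genes may have been dropped or split. Groups came from the sample titles.

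The main test was that of edgeR 4.0.16 (R 4.3.3), with TMM scaling, filterByExpr by group (minimum count 10), 1 coefficient per group over all 19 mice, the quasi-likelihood F test and Benjamini-Hochberg adjustment over 15016 genes, at 0.05. The median total was 30159347 counts per mouse. TPM were computed from counts and lengths, and log2 CPM with a prior count of 2 served for correlations, given as descriptions. The fit was also run on simulated counts with planted changes, and the outcome is not reported here. Alternatives were DESeq2 1.42.0, RLE, TMM leaving out mitochondrial and Mup genes, an unfiltered table, a minimum count of 50, only the groups compared, a replicate block, a covariate for 2 runs of library numbers in the deposited tables, limma 3.58.1 on log2(TPM + 1) and each mouse left out. Symbols were matched for 48970 of 49315 genes. Promoter windows came from RefSeq and coding sequences from GENCODE M21.

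The genes named are the 7 members, called genes of the steroid list and up to 6 of it with the smallest p in a comparison, and the 5 genes most correlated with each member, of which some are not reported here. Members and lists were chosen with earlier results of these data known. Cyp2c40, Star, Cyp21a1, Cyp11b1 and Slco1a1 by mouse were added after their values were seen. The titles number the samples of a group, and litters or cages are not given.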

Additional observations from a re-analysis of the deposited data

Results flagged for a closer look

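In each of the 4 groups the highest and lowest mouse of every member was compared with its nearest neighbour by Dixon's ratio of the gap to the range, 28 groups in all. For normally distributed values chance flags about 1 in 20. The ratio was taken on TPM, not on a log scale, and Hsd3b5 ran from 2.18 to 173 TPM in 1 group. That rate therefore need not hold here, and the flags do not measure how unusual these mice are. Values that stood apart were Hsd3b5 at 173 TPM in mouse 5 of the Gramd1c-/- high cholesterol group (ratio 0.965), Hsd3b5 at 73.7 TPM in mouse 1 of the Gramd1c+/+ high cholesterol group (0.868), Hsd3b2 at 35.7 TPM in that same Gramd1c-/- mouse 5 (0.816) and Hsd3b3 at 63.1 TPM in mouse 4 of the Gramd1c-/- low cholesterol group (0.931). No member was called by edgeR's interaction test, which called 0% of all genes tested. Its 95% interval for Hsd3b5 ran from -3.69 to 2.74 on the log2 scale, so a difference is not excluded.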

How the results depend on the processing

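No member was called under any of the 29 other settings, and the smallest adjusted p of a member was 0.256. Of 1008 log2 fold changes of members under those settings, 952 kept their sign and 56 did not, and the cause was not tested. For genotype on high cholesterol, the replicate block gave -0.07 for Hsd3b2, -0.771 for Hsd3b5 and -0.013 for Srd5a1, and for diet in Gramd1c+/+ mice -0.346 for Hsd3b5. The replicate numbers did not pair the mice (mean residual correlation -0.069 over 27 pairs of the same number), and the block left 36 calls for diet in Gramd1c-/- and 47 in Gramd1c+/+ mice. The term for the runs of library numbers gave, for genotype on high cholesterol, 0.031 for Hsd3b3 and 0.056 for Akr1c6, for diet in Gramd1c-/- mice -0.054 for Hsd17b2, and for diet in Gramd1c+/+ mice -1.412 for Hsd3b5, 0.007 for Hsd11b1 and -0.037 for Akr1c6. No filter gave -0.008 for Hsd17b2 (diet, Gramd1c-/-), -0.003 for Hsd3b5 and -0.001 for Akr1c6 (diet, Gramd1c+/+). Limma on log2(TPM + 1) gave -0.577 and -0.026 for the same 2 genes. Leaving out mouse 5 of the Gramd1c-/- high and mouse 2 of the Gramd1c+/+ low cholesterol group together, chosen after seeing the data, gave for genotype on high cholesterol -0.314 for Hsd3b2, -2.066 for Hsd3b5 and -0.28 for Srd5a1, for diet in Gramd1c-/- mice -0.155 for Hsd17b2 and -0.142 for Srd5a1, and for the interaction 0.1 for Hsd11b1 and -0.002 for Hsd17b2.

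Without a change of sign, Hsd3b5 moved by over 1.5 times in fold for diet in Gramd1c-/- mice (-2.804 with the replicate block, -2.698 with the term for the runs, -2.244 with limma), for the interaction (-2.458, -1.287 and -1.667) and for genotype on high cholesterol (0.004 with limma). The same holds for Hsd3b5 for genotype on low cholesterol, from 1.447 to 2.4 with the term for the runs.

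With 1 mouse left out at a time, the range for genotype on high cholesterol was -0.314 to 0.299 for Hsd3b2, -2.066 to 2.552 for Hsd3b5, -0.285 to 0.001 for Hsd17b2, -0.281 to 0.201 for Srd5a1 and -0.183 to 0.042 for Akr1c6. For diet in Gramd1c-/- mice it was -0.155 to 0.119 for Hsd17b2, -0.142 to 0.406 for Srd5a1 and -0.034 to 0.197 for Akr1c6, and in Gramd1c+/+ mice -1.577 to 0.631 for Hsd3b5, -0.122 to 0.071 for Hsd11b1 and -0.079 to 0.133 for Akr1c6. For the interaction it was -0.608 to 0.004 for Hsd3b2, -3.512 to 1.105 for Hsd3b5, -0.21 to 0.008 for Hsd11b1, 0 to 0.302 for Hsd17b2 and -0.056 to 0.186 for Akr1c6. Over all genes DESeq2 called 94 for diet in Gramd1c-/- mice (49 with edgeR) and 111 in Gramd1c+/+ mice (66 with edgeR), and with a mouse left out the count in Gramd1c+/+ mice ran from 41 to 87, with 41 without mouse 2 of the high and 42 without mouse 2 of the low cholesterol group.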
